A study of Mus musculus with 6 samples.

Results

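The NANOG binding that was still called in Esrrb-GFP negative embryonic stem cells (ESCs) comprised 286 genomic intervals, the whole NANOG list of that fraction, of 23767 distinct intervals in the 6 OCT4 and NANOG lists. These residual NANOG regions, called members here, were selected on their presence in that list and grouped by exact presence in the other 5 lists, so presence in a list is given as a description and without a test. ChIP-Seq for OCT4 and NANOG was performed on E-GFPd1 cells, a single E14Tg2a line (Esrrb-2a-GFPd-IBIH) with a destabilised GFP reporter placed after the coding sequence of both Esrrb alleles, cultured in LIF and FCS. The fixed cells were sorted into Esrrb-GFP high (the top 10%), medium (the 15% just above negative) and negative cells, for which the sample sources use the word low, and 1 library was made per factor and fraction from material of 3 pooled ChIPs. All 6 groups share the reporter alleles, and the paper calls the parental E14Tg2a cells wild-type. As there was 1 library per group, the fractions were compared without p-values. The lists give chromosome, start and end without a score or a read count, so the depth behind each call is unknown. A region listed for a fraction is called bound below, which says only that it passed the authors' criteria in that library. Shares carry 95% Wilson intervals and differences between shares 95% Newcombe intervals, both of which cover counting error over regions and not variation between cultures.

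NANOG is a homeodomain transcription factor that sustains self-renewal of naive ESCs, and it binds many enhancers together with OCT4, a POU domain factor, and SOX2, an HMG box factor. OCT4 and SOX2 often occupy a composite element in which a Sox site is followed by an octamer. ESRRB is an orphan nuclear receptor encoded by a NANOG target gene, and unlike OCT4 and SOX2 it is not kept in primed pluripotent cells.

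The sequences of members at 7 genes of the lists drawn up for pluripotency, lineage and signalling are shown first, because they are the members nearest to known regulators of these cells. Sequences are those of the plus strand of NCBIM37, the same assembly as mm9, with positions counted from 1, and members wider than 200 bp are shown by their central 200 bp. Capitals mark matches to any of the 8 motifs searched, which are described with the motif results. The member at Ctnnb1 lies in annotated UTR sequence and is described by its position.
Nanog, upstream of the annotated 5′ UTR (chr6:122657412-122657506): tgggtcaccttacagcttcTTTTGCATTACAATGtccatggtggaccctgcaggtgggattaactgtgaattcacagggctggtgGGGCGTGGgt
Sox2, start of the coding sequence (chr3:34549338-34549371): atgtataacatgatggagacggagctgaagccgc
Fgf5, central part of the intronic member (chr5:98684872-98685071): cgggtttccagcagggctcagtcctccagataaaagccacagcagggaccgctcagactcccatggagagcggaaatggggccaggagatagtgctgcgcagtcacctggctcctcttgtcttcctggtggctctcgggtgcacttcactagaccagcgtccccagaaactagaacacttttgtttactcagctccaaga
Trim71, downstream member (chr9:114437392-114437551): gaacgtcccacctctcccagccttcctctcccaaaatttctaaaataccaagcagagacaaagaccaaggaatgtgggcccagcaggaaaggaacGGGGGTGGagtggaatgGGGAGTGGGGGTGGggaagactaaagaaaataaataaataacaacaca
Trim71, upstream member (chr9:114466432-114466531): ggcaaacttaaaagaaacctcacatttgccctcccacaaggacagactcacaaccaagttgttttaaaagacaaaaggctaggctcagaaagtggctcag
Sall1 (chr8:91569312-91569351): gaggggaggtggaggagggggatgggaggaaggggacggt
Dnmt3a (chr12:3885112-3885151): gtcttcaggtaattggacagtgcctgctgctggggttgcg
Zscan10 (chr17:23738452-23738491): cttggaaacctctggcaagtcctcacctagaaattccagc
The capitals at Nanog are a match on the minus strand to the Oct-Sox element with 2 mismatches and a KLF match, and those of the downstream Trim71 member are 3 KLF matches, of which 2 overlap. Both matches shown at Nanog lie more than 100 bp from the centre of the member and are not counted in the motif shares. The member is counted for KLF by another match, in the part not shown. The other 6 sequences hold no match to the motifs searched.

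The widest member bound by OCT4 in all fractions and the widest member free of OCT4 that was bound by NANOG in all fractions are shown as examples of the main classes. The first, near Gm15319, lies in sequence that occurs elsewhere in the genome. The second lies in an intron of Zfp1, a zinc finger gene, in sequence that occurs once. Capitals again mark motif matches, here KLF matches only.
Gm15319, central part (chr8:19976182-19976381): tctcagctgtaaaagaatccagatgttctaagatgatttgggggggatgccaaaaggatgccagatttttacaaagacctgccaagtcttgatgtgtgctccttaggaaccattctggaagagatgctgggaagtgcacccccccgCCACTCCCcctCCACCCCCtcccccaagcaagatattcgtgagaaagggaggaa
Zfp1, central part (chr8:114172762-114172961): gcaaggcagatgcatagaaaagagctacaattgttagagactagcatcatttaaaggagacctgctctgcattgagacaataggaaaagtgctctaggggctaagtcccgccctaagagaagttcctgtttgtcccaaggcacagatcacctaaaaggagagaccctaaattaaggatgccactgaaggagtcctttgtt

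The remaining 3 sequences were chosen after the values were seen and belong to a set of 5 members on 5 chromosomes that share sequence with each other. Capitals mark the bases in words of 16 that another member of the set also holds on either strand.
Spink4 member (chr4:40845852-40845911): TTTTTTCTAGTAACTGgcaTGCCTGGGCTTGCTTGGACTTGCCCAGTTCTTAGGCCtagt
Ido2 member (chr8:25690292-25690391): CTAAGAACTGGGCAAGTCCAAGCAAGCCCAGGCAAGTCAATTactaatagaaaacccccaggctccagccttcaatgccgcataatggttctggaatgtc
Tmem45b member (chr9:31266392-31266451): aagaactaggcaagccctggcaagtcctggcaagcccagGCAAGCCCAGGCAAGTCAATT

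Most members were places where NANOG was also bound in Esrrb-GFP high cells. Of the 286, 237 were in the NANOG list of high cells, 82.9% (95% Wilson interval 78.1 to 86.8), and 182 were in that of medium cells, 63.6% (57.9 to 69). For comparison, the NANOG lists of high, medium and negative cells hold 39.7%, 19.9% and 1.2% of all distinct regions. Of the 9389 other NANOG regions, which by definition are in the high or the medium list, 97.9% were in the high list and 48.4% in the medium list. Against these, the share of members was lower in the high list and higher in the medium list. OCT4 was bound at 84 members in high cells, 29.4% (24.4 to 34.9), at 97 in medium cells, 33.9% (28.7 to 39.6), and at 87 in negative cells, 30.4% (25.4 to 36). All 3 shares were below those of the OCT4 lists among all distinct regions, 52.4%, 60.9% and 43.6%, but 14092 of the distinct regions were bound by OCT4 without NANOG. Among the 9389 other NANOG regions, OCT4 was bound at 38.9%, 37.1% and 18.8% in high, medium and negative cells. Against these, the share of members was lower in high cells and higher in negative cells, and in medium cells its interval included the 37.1%. Without members in repeated sequence, the shares were 25.4% (20.3 to 31.4), 26.7% (21.4 to 32.8) and 23.3% (18.3 to 29.1). In negative cells this interval included the 18.8%. No OCT4 list held 177 members, 61.9% (56.1 to 67.3), against 56.6% of all 9675 NANOG regions. The remaining 109 members had OCT4 in at least 1 fraction and 64 had it in all 3. These shares belong to the rule by which the members were grouped and are not read further.

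The members fell into 23 combinations of lists, of which 5 held 220 members. The largest, with 82 members, was bound by NANOG in all fractions and by OCT4 in none. A further 59 were bound by NANOG in high and negative cells without OCT4, and thus skipped the medium list. Both factors were bound in every fraction at 43 members. NANOG was bound in medium and negative cells without OCT4 at 18 members, and in negative cells alone without OCT4 at another 18. Among the 154 members with NANOG in all 3 fractions, OCT4 was present in at least 1 list at 72, 46.8% (39 to 54.6), whereas among the 21 with NANOG in negative cells only it was present at 3, 14.3% (4.98 to 34.6). At 7 combinations there was a single member.

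**Figure D1:**
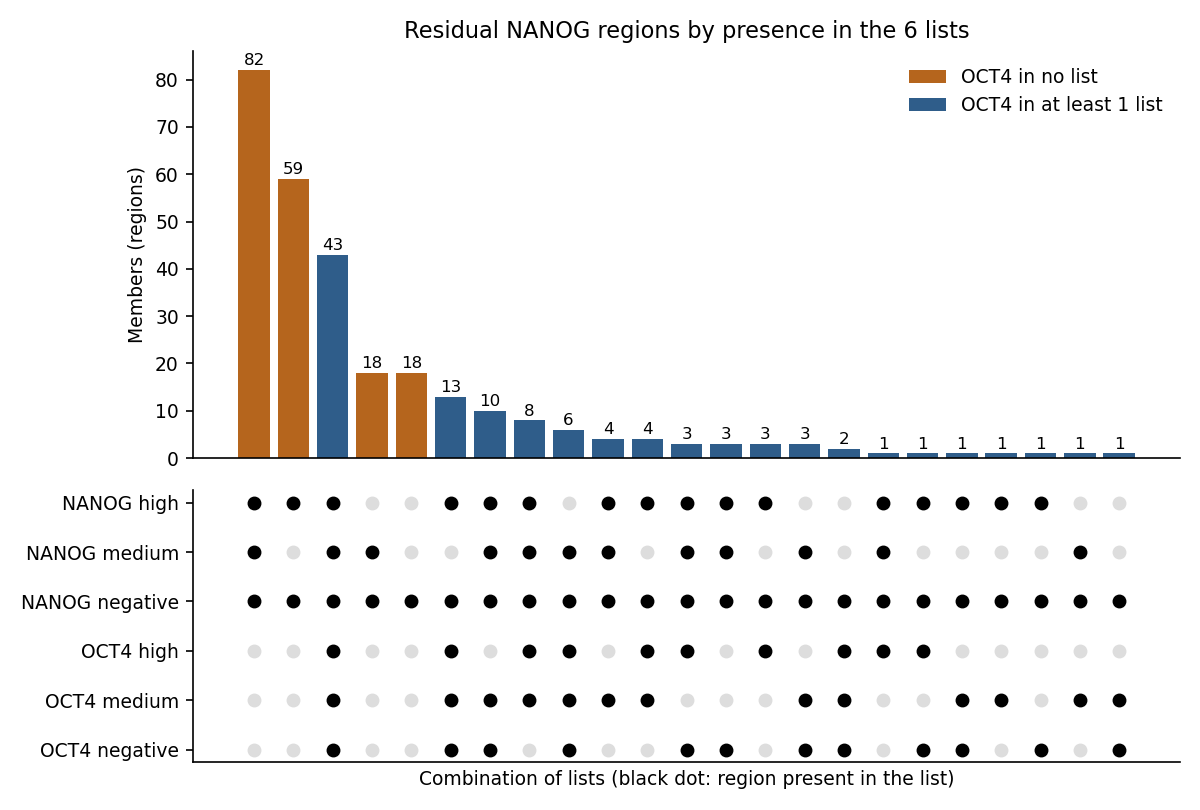
Number of residual NANOG regions (bars, with counts above them) for each of the 23 combinations of lists, where a black dot marks presence in the list named at the left and a grey dot absence. Combinations without OCT4 hold 177 members and those with OCT4 in at least 1 list hold 109.

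The widths of members had a median of 80 bp and an interquartile range of 60 to 140 bp, against 100 bp (60 to 200 bp) for the 9389 other NANOG regions. All distinct regions had the same median, 80 bp (60 to 160 bp). OCT4-free members had a median of 60 bp (40 to 100 bp), and other OCT4-free NANOG regions the same, 60 bp (40 to 120 bp). OCT4-bound members had one of 140 bp (80 to 200 bp), and other NANOG regions with OCT4 one of 180 bp (120 to 260 bp). Width was set by the authors' merging of peaks from all datasets, so it depends in part on how many libraries contributed a peak. It cannot be read as a strength of binding, and the share of width that comes from merging was not tested. The widest member spanned 740 bp near Gm15319 on chromosome 8 and the next 540 bp on the same stretch, and both were in all 6 lists. The widest OCT4-free interval spanned 480 bp at the Pgk1 promoter and was in the NANOG list of negative cells only, with a limit on its origin that is given with Pgk1 below.

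**Figure D2:**
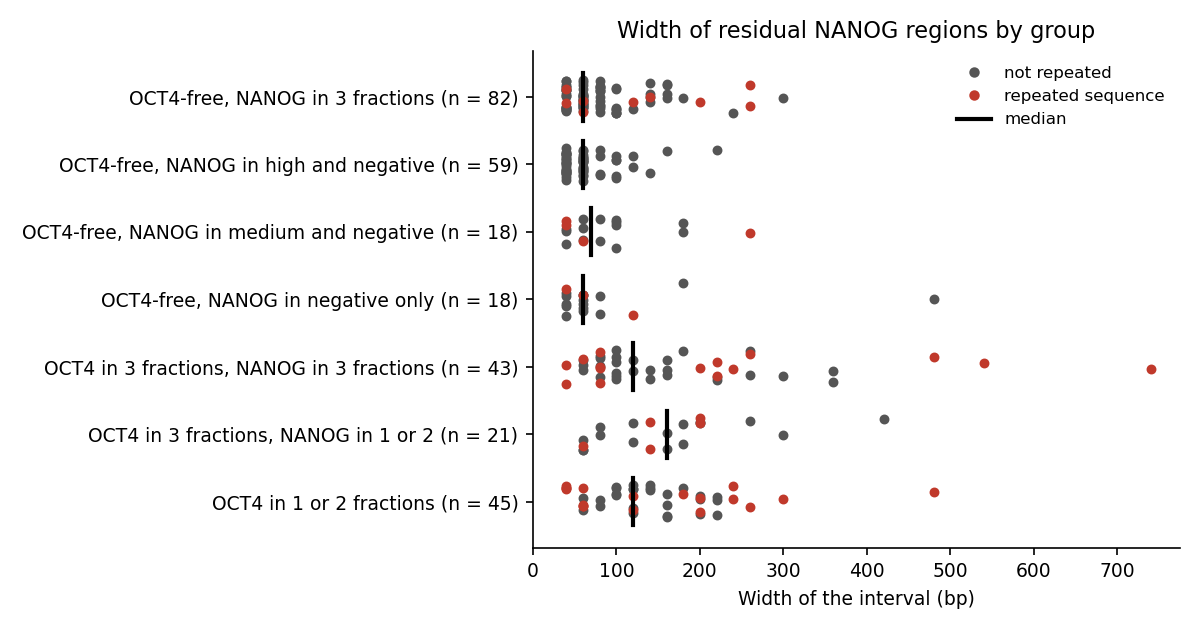
Width in bp of each of the 286 members (points, spread vertically within a group for visibility), by group, with the group median as a black line and members in repeated sequence in red. The OCT4-free groups have medians of 60 or 70 bp and the groups with OCT4 medians of 120 or 160 bp.

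Genes known for the pluripotency network were next examined. Of 95 genes found in the annotation from 5 lists (naive pluripotency, core and general pluripotency, formative and primed, germ layer and lineage, signalling), 8 had a member within 20 kb of the gene body, 8.42%. Over all 22380 protein-coding genes the share was 0.961%, or 215 genes. The same 95 genes had a NANOG region of high cells within 20 kb at 66, 69.5%, against 23.3% of protein-coding genes. Thus 58 of the 66 had no residual region in that distance. Over all protein-coding genes, 5222 had a NANOG region of high cells within 20 kb, and at most 215 of these could have a member. Lack of a residual region was therefore no more frequent at the listed genes than at genes at large. By list, a member lay near 1 of 18 naive genes (Nanog), 4 of 18 core genes (Sox2, Sall1, Trim71 and Zscan10), 2 of 14 formative and primed genes (Fgf5 and Dnmt3a), 1 of 25 signalling genes (Ctnnb1) and 0 of 20 lineage genes. For lineage genes, 0 of 20 has a Wilson upper limit of 16.1%, and 3 counts, the limit that a count of 0 allows, would be 15%, while 7 of the 20 had a NANOG region of high cells. The lists were drawn up with results of these data known, and no test of them was made.

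At Nanog itself the member spanned chr6:122657412-122657831, 420 bp with its centre 11 bp inside the transcription start site, and covered the promoter. NANOG was bound there in negative cells and in neither high nor medium cells, while OCT4 was bound in all 3 fractions. The lists hold no signal, so whether NANOG signal at this region differed between fractions was not tested. The nearest NANOG region of high cells lay 4480 bp away and the same distance separated the nearest one of medium cells.

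At Sox2, which encodes the HMG box partner of OCT4, the member spanned chr3:34549332-34549371, 40 bp with its centre 294 bp downstream of the start, at the beginning of the coding sequence. It was in the NANOG list of negative cells and in no other list. The nearest region of any list lay 3580 bp away and was bound by NANOG in high cells. Within 20 kb of Sox2 there were 3 NANOG regions in high cells, 3 in medium cells and 1 in negative cells, and 5, 6 and 6 OCT4 regions in high, medium and negative cells.

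Fgf5 encodes a growth factor of the post-implantation epiblast. Its member, chr5:98684792-98685151, spanned 360 bp of an intron with its centre 1769 bp downstream of the start, and it was in all 6 lists. It was the only NANOG region and the only OCT4 region within 20 kb of the gene in every fraction. Trim71, which encodes an RNA-binding protein of early embryos, held 2 intronic members. The downstream one, chr9:114437392-114437551, was in all 6 lists, and the upstream one, chr9:114466432-114466531, was bound by NANOG in high and negative cells and by OCT4 in high cells. At this gene NANOG had 3 regions in high cells, 2 in medium cells and 2 in negative cells.

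The other 4 members at list genes were free of OCT4. Those at Sall1 (a zinc finger factor), Dnmt3a (a de novo DNA methyltransferase) and Zscan10 (a zinc finger factor of ESCs) were each 40 bp wide and bound by NANOG in all 3 fractions. They lay at chr8:91569312-91569351, with the centre 1271 bp upstream of the Sall1 start, at chr12:3885112-3885151, 317 bp upstream of a Dnmt3a start and inside an intron of a longer transcript, and at chr17:23738452-23738491, 564 bp downstream of a Zscan10 start. The member at Ctnnb1, which encodes beta-catenin, spanned 220 bp at chr9:120864452-120864671, with the centre 13 bp upstream of a start. It was bound by NANOG in high and negative cells and skipped the medium list. No OCT4 region of any fraction lay within 20 kb of Dnmt3a or Ctnnb1, whereas Sall1 had 5, 6 and 3 and Zscan10 had 2, 5 and 4 in high, medium and negative cells.

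Promoters held more of the members than of the other NANOG regions. A promoter here is the 1 kb either side of any transcript start of a protein-coding gene, with internal starts and non-coding transcripts of such genes included. The centre lay there at 21 members, that at Pgk1 included, 7.34% (4.85 to 11). Of 9389 other NANOG regions it did so at 374, 3.98%, a difference of 3.36 percentage points (0.835 to 7). Of members without OCT4, 16 of 177 were at a promoter, 9.04%, against 3.72% of other OCT4-free NANOG regions, 5.32 points (1.88 to 10.5). With OCT4, the shares were 4.59% and 4.33%, and the difference of 0.261 points had an interval of -2.44 to 5.99. OCT4-bound minus OCT4-free members gave -4.45 points (-10.2 to 2.19), so the members' own 2 classes were not separated at this number of regions. At 5 kb the difference was 2.97 points (-1.25 to 7.98), and for the 237 members in the high list against the NANOG regions lost between high and negative cells it was 2.35 points (-0.146 to 6.21), both with intervals that include 0. Over all distinct regions, most of which are OCT4 regions, 7.22% were at a promoter.

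Members within 1 kb of a start were found at genes of varied function. Besides Nanog and Ctnnb1, those closest to a start were at Tox, an HMG box factor (6 bp downstream of an internal start), Slc35f2, a solute carrier (20 bp upstream), Olfr328, an olfactory receptor (22 bp downstream), and Os9, a lectin of the endoplasmic reticulum (36 bp upstream). All 4 were bound by NANOG in all fractions and by OCT4 in none, with widths of 40 to 80 bp. Tox spans 6613500 to 6918704 on the minus strand of chromosome 4. Its member, at 6616472 to 6616511, lies near the 3′ end of the gene and not at its annotated 5′ end. Further OCT4-free members lay at Mcts1 (83 bp upstream), Mras (a RAS family GTPase, 122 bp downstream), Psrc1 (143 bp upstream) and Hax1 (387 bp downstream). Of these, Mcts1 was bound by NANOG in high and negative cells, Mras and Psrc1 in medium and negative cells, and Hax1 in all 3. The start at Mras is also internal, as the gene spans 99285841 to 99337300 on the minus strand and this member begins at 99294972. With OCT4 there were members at Zp3, a zona pellucida glycoprotein gene (537 bp upstream, OCT4 in high and negative cells), and Shc4, an adaptor gene (538 bp upstream, all 6 lists).

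Pgk1, which encodes the glycolytic enzyme phosphoglycerate kinase, had a pair of members, both in the NANOG list of negative cells and in no other. The first spanned 480 bp at chrX:103382072-103382551 with its centre 127 bp upstream of the start. The second spanned 180 bp at chrX:103399032-103399211 and overlapped the 3′ end of the gene, which is at 103399038. They were 16480 bp apart, and the nearest other region of any list was 261820 bp from the first. Whether the reporter construct carries Pgk1 sequence is not given in the sources used here. If it does, reads from the construct and from the locus cannot be told apart in these lists, so the 2 members are given as calls at these coordinates and not as binding at the gene. Among the 18 OCT4-free members of negative cells only, these were the 2 widest, and the others spanned 40 to 120 bp.

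The other 16 members bound in negative cells alone, without OCT4, included those at Sox2 and in an exon of Mras, which also held the member near an internal start. Another 3 lay on chromosome 4 between 146773012 and 146899431, near Gm13145 and Gm13152, and 1 more on the same chromosome near Gm13225. The rest were intronic, in Abcb11, Micall2, Plekha7 and Gm15319, or between genes. Over the 18, 2 were at a promoter (11.1%, 3.1 to 32.8) and 3 were in repeated sequence (16.7%, 5.84 to 39.2).

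Most members lay between genes or in introns. By their centres, 103 were intronic (36%, against 38.5% of other NANOG regions) and 172 intergenic (60.1% against 59.2%). In UTRs there were 6 (2.1% against 1.26%) and in other exons of protein-coding genes 5 (1.75% against 1.02%). The UTR members included those of Egr1, an immediate early factor bound by NANOG in medium and negative cells, and of Ccnjl and Mbtps1. A protein-coding gene body lay within 20 kb of 182 members, and 14 genes had 2 or more members in that distance. The matching counts are not given here for other NANOG regions, so these cannot be read as particular to members. Ptprg, a receptor tyrosine phosphatase gene, held 4 intronic members, each in a different combination of lists and each with OCT4 in at least 1 fraction, and 13 NANOG regions of high cells lay within 20 kb of it. Tead4, a TEA domain factor of the trophectoderm, and Lmx1b, a LIM homeodomain factor, held 2 each. Slc2a3, a glucose transporter gene next to Nanog, had 1 in an intron, and the Nanog promoter member was also within its 20 kb. At Hspa8, a heat shock protein gene, a 300 bp member lay 1468 bp from the gene and was bound by OCT4 in all fractions and by NANOG in high and negative cells.

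Distance to other regions did not separate members from other NANOG regions at these numbers. No other region of any list lay within 10 kb of 147 members, 51.4%, against 54.6%, a difference of -3.22 points (-9.08 to 2.6). The nearest other region was at a median of 11080 bp. Some OCT4-free members had OCT4 near but not on them. In high, medium and negative cells respectively, 21, 28 and 11 of the 177 had an OCT4 region within 500 bp (11.9%, 15.8% and 6.21%). Within 20 kb, 73, 79 and 61 had one (41.2%, 44.6% and 34.5%). These shares were not computed for other OCT4-free NANOG regions, so they cannot be read as particular to members.

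Repeated sequence was more frequent in members than in other NANOG regions. A region was counted as repeated when the median number of genomic copies of its words of 32 bases, on either strand, was above 1. This held for 54 members, 18.9% (14.8 to 23.8), and for 399 other NANOG regions, 4.25% (3.86 to 4.68), a difference of 14.6 points (10.5 to 19.6). Among all distinct regions it was 6.1%. Most of the 54 members had few copies: 25 had a median of 2 and 8 a median above 10. At 186 members every word was unique, and any repeated word was present at 100 members, 35%, against 20% of other NANOG regions.

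The repeated members were mostly OCT4-bound. Of 109 members with OCT4, 38 were repeated, 34.9% (26.6 to 44.2), whereas of 177 without OCT4, 16 were, 9.04% (5.64 to 14.2), and the difference was 25.8 points (16.1 to 35.7). Among the other NANOG regions the shares with and without OCT4 were 3.69% and 4.68%. The differences from these were 31.2 points (22.9 to 40.5) for OCT4-bound and 4.36 points (0.907 to 9.53) for OCT4-free members. The 59 OCT4-free members bound in high and negative cells held no repeated region (0%, 0 to 6.11), and 3 counts, the limit that a count of 0 allows, would be 5.08%. In contrast, 9 of the 82 OCT4-free members bound in all fractions were repeated (11%, 5.88 to 19.6), as were 15 of the 43 members in all 6 lists (34.9%, 22.4 to 49.8) and 18 of the 45 with OCT4 in 1 or 2 fractions (40%, 27 to 54.5). OCT4-bound members were also wider, as given above, and whether this moved the shares was not tested. How the authors' alignment treated reads with more than 1 match is not given in the sources used here, and its part in these calls was not tested.

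**Figure D3:**
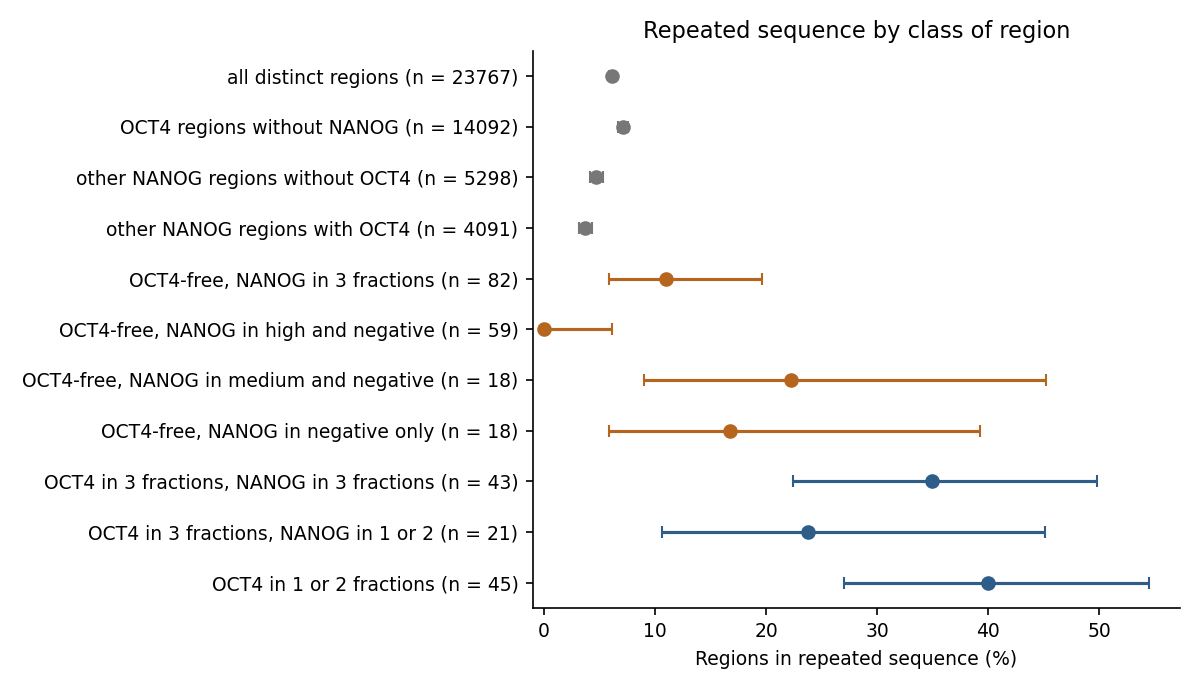
Share of regions in repeated sequence (points, in %) with 95% Wilson intervals (bars), for all regions and 3 classes of other regions in grey, OCT4-free members in brown and OCT4-bound members in blue. The share is 4.68% and 3.69% for other NANOG regions without and with OCT4, 0% to 22.2% for the OCT4-free groups of members and 23.8% to 40% for the groups with OCT4.

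The densest group of members lay on chromosome 8. Between 19761212 and 20033051, a span of 271840 bp, there were 11 of the 24 members of that chromosome, and all 11 were in repeated sequence with a median of 2 to 4 copies. The surrounding 0.5 Mb held 29 regions of any list, of which 11, or 37.9%, were members, against 1.2% of all regions. It also held 6 NANOG regions that were not members and 12 regions with OCT4 alone. Of the 11 members 7 had OCT4 in at least 1 fraction and 4 in all 3. They included the 4 widest members with OCT4, of 740, 540, 480 and 480 bp. The protein-coding genes of the stretch, Gm15319 and 4930467E23Rik, had 6 and 2 members within 20 kb. Without the stretch, the difference in repeated sequence between members and other NANOG regions was 11.4 points (7.57 to 16.2). A second group lay on chromosome X between 120337952 and 121278431, with members near Gm17503, Gm6604, Gm17467 and Vmn2r121, a vomeronasal receptor gene.

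**Figure D4:**
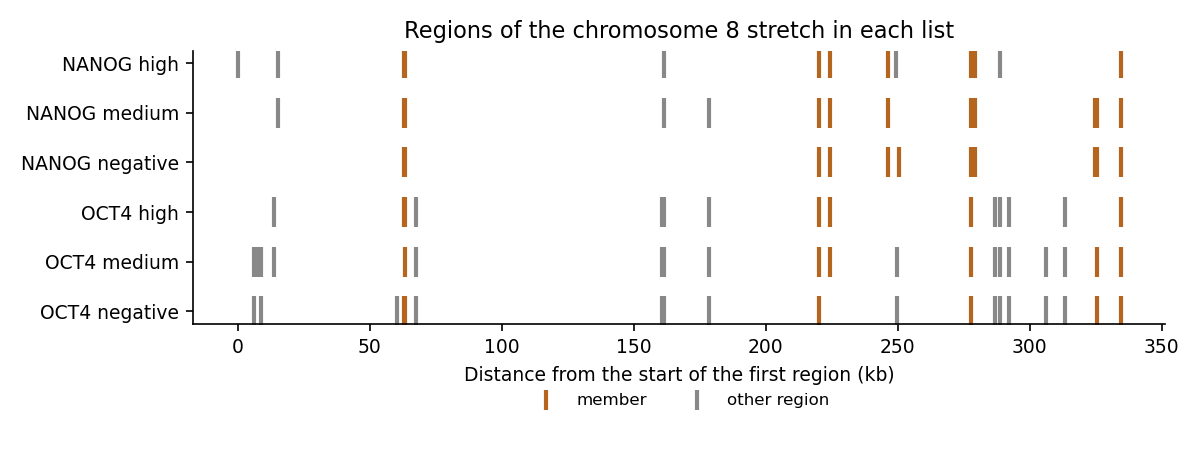
Position of the 29 regions of the chromosome 8 stretch (ticks, in kb from the start of the first region), in a row for each list, with members in brown and other regions in grey. Members are the only regions in the row of NANOG in negative cells, and 7 of the 11 also appear in at least 1 OCT4 row.

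The telomere repeat was present in a small class of members. At least 3 consecutive TTAGGG units on either strand were present within 100 bp of the centre of 9 members, 3.15%, and of 1 of 9389 other NANOG regions, 0.0107%. The motif was looked for after one such sequence had been seen, so no test of it is given. In the whole series 16 of 23767 regions held it, so 9 of the 16 were members, 1 was another NANOG region and 6 had OCT4 alone. OCT4 was bound at all 9 members in medium and in negative cells and at 3 of them in high cells, and NANOG was bound at 7 in high and 8 in medium cells. Over the series, 16 of the 16 were bound by OCT4 in medium cells, 15 in negative and 6 in high cells. Only 1 of the 9 was near a chromosome end, chr2:181747432-181747611, 476 bp from the end of the assembled chromosome. The others were interstitial, and included members in introns of Phf21a, Wdr76 and Sh3bgrl2 and between genes on chromosomes 3 and 13. Of the 9, 8 were repeated by the measure above.

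Some members shared sequence with each other without being repeated over their whole width. By 5 or more shared words of 16 bases, 38 members fell into 14 sets, and 19 of the 38 were not repeated by the median copy number. The matching share is not given here for other NANOG regions, so this count cannot be read as particular to members. The largest set, of 7 members, shared its sequence with 233 other NANOG regions and 8 regions with OCT4 alone. The set of 5 shown above shared its sequence with only 1 other NANOG region and 3 regions with OCT4 alone, and all 5 were unique by median copies. NANOG was bound at 4 of these 5 in all fractions, and 3 of the 5 were free of OCT4. In a set of 4, the sequence was shared with 84 other NANOG regions and 68 with OCT4 alone. Repeat families could not be assigned from the sequence alone, and members that share sequence are not independent of each other.

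The motifs of the pluripotency factors were compared next, in 200 bp windows around region centres on both strands. The short NANOG core TAATGG was present at 22 members, 7.69%, and at 13.3% of the other NANOG regions, a difference of -5.62 points (-8.27 to -1.88), and it was present in 9.52% of all regions. Windows 10 kb downstream held it in 8.05% for all regions and in 9.44% for the members. The difference was -6.42 points (-9.83 to -1.3) in OCT4-free regions and -4.85 points (-8.27 to 1.47) in those with OCT4. It was -4.94 points (-8 to -0.565) without regions in repeated sequence, and with windows of 50 bp either side it was -2.35 points (-4.55 to 0.99). Members with the core included those at the Tox and Os9 starts described above and, with 2 matches each, in introns of Msi2 and Kcnj16. Those at Nanog, Sox2 and Fgf5 did not hold it.

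Octamer and Oct-Sox elements were more frequent at members with OCT4 than at members without. The octamer ATGCAAAT was present at 7 of 109 OCT4-bound members, 6.42%, and 3 of 177 OCT4-free members, 1.69%, a difference of 4.73 points (0.169 to 11.1). The Oct-Sox element, CATTGTT followed by ATGCAAAT with at most 3 mismatches over both, was present at 11% and 2.82%, a difference of 8.18 points (2.33 to 15.6). Its last letters overlap the octamer, so the 2 motifs are not independent, and at least 1 of them was present at 16 OCT4-bound and 7 OCT4-free members, 10.7 points (3.98 to 18.8). The intervals of the single elements reached below 0 with windows of 50 bp either side for both, with 250 bp either side for the octamer (4.3 points, -1.24 to 11.3) and with 1 mismatch fewer for Oct-Sox (2.75 points, -0.0397 to 7.78). The share in OCT4-bound members did not differ detectably from the 18.1% of other NANOG regions with OCT4, at -3.41 points (-8.98 to 4.52). Over all regions 7.86% held an octamer and 10.9% an Oct-Sox match, against 1.35% and 1.06% of windows 10 kb downstream.

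For the other motifs the members could not be told from other NANOG regions. The ESRRB motif TCAAGGTCA with at most 1 mismatch was present at 45 members, 15.7%, against 15.9%, a difference of -0.21 points (-4.05 to 4.52), and in 11.2% of all regions and 6.83% of downstream windows. The KLF motif GGGNGTGG was present at 13.3% against 10.9%, 2.42 points (-1.09 to 6.89), with 11.9% in all regions. The Sox motif CATTGTT was present at 6.29% against 9.07%, -2.78 points (-5.13 to 0.7), with 6.26% in all regions, and it is contained in the Oct-Sox element. In OCT4-free regions the Sox difference was -4.84 points (-7.37 to -0.479). The CTCF motif, with at most 1 mismatch, and the REST motif, with at most 3, were found at 3 and 2 members, 1.05% and 0.699%, and in 2.36% and 1.16% of all regions.

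**Figure D5:**
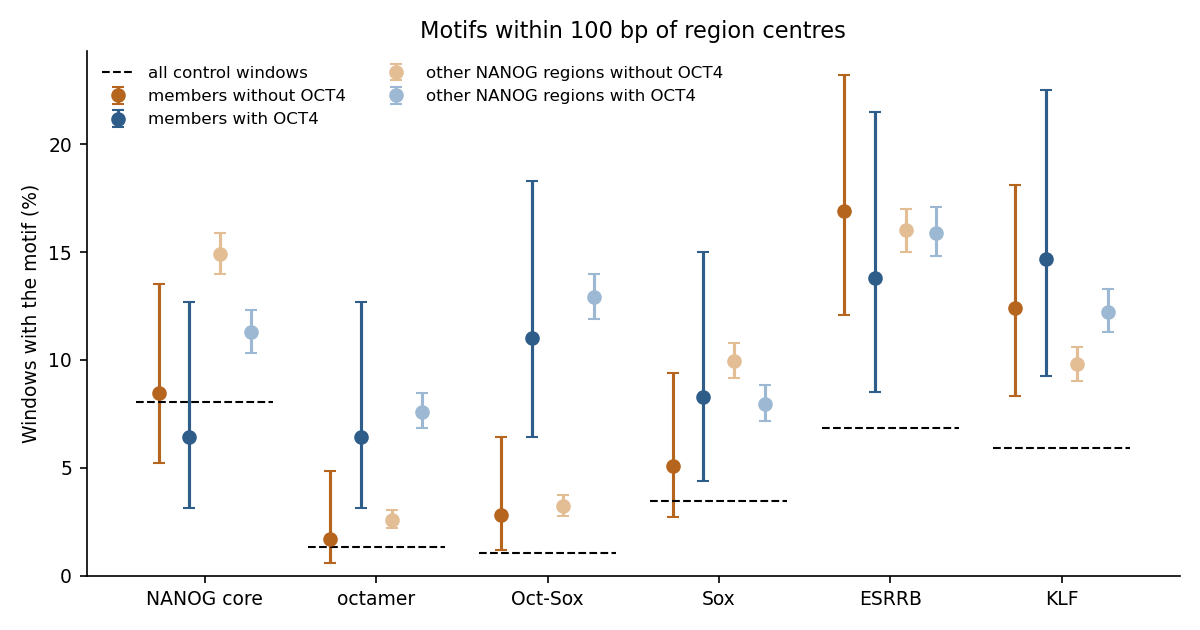
Share of 200 bp windows with each motif (points, in %) with 95% Wilson intervals (bars), for members and other NANOG regions with and without OCT4. Dashed lines give the share in windows 10 kb downstream of all 23767 regions. The 2 classes of members lie apart most at the Oct-Sox element, at 2.82% and 11%, and all classes lie above the dashed line at ESRRB and KLF.

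Base composition differed slightly in the same windows. The GC content of members had a median of 49% (interquartile range 45.5 to 52.5) and that of other NANOG regions one of 46.5% (43 to 50). OCT4-free and OCT4-bound members had the same median, 49%. In windows of 1 kb the medians were 45.2% and 44.5%. The most GC-rich window of a member, at 77.5%, was among the OCT4-free members of negative cells only. Tandem repeats of 18 bp or more were present at 20 members, 6.99%, and 2.11% of other NANOG regions, and at 7.16% of all regions.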

How the data were processed

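Residual NANOG regions were examined in the deposited interval lists of OCT4 and NANOG ChIP-Seq in Esrrb-GFP high, medium and negative cells (6 libraries, grouped by the factor and fraction in the sample titles). The authors aligned reads to mm9 (Bowtie, per the submitters' processing notes; version and settings are not given in the sources used here), used SISSRs within GeneProf to find peaks, joined peaks that overlapped between datasets, and treated a joined region as lost from a fraction that kept under 50% of its highest signal, scaled for depth. The deposited lists hold interval coordinates and no other value such as a score, a signal or a read count, so depth per library is unknown. Starts were read as 0-based and are given counted from 1.

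Regions were matched by identical coordinates. Genes came from GENCODE for NCBIM37 (37310 genes, 22380 protein-coding). Motifs were scanned within 100 bp of centres, and copies of words of 32 bases were counted over the genome. Intervals are 95% Wilson and Newcombe intervals. Named members were those within 20 kb of a listed gene, up to 15 closest to a start within 1 kb, the 3 widest of each combination of lists, and genes with at least 2 members, of which the text gives the main ones. The members, lists and tests were chosen with earlier results of these data known. The telomere repeat, the shared-sequence sets, the comparisons without the chromosome 8 stretch, without regions in repeated sequence and without the telomere repeat, and repeated sequence within the members were chosen after the data had been seen. Functions were tested on simulated data, where 15 of 15 known answers were recovered. Python 3.11.15, numpy 2.4.6, pandas 2.3.3, pysam 0.24.0, samtools 1.23.1 and matplotlib 3.10.9 were used. Values of 2 members are not reported here.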

Additional observations from a re-analysis of the deposited data

How the results depend on the processing

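No paired analysis was possible because every combination of factor and fraction is represented by a single library, and for the same reason no library could be left out. Of 153 alternatives over 29 results, 116 kept their direction and their side of the threshold or stayed within the interval of the value reported. The 116 include the alternatives by an overlap of 1 bp, which could not differ from identity. In 9 a motif difference changed sign, each time with intervals that include 0 before and after. Limits common to all are the lack of replicates, the unknown depth, and widths set by merging.

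Presence of a region in a list depended on how near it had to be. With a region within 5 kb in place of identity, the share of members was 69.2% for NANOG in medium cells and 45.8%, 52.4% and 42.3% for OCT4 in high, medium and negative cells, and the share without OCT4 was 43%. Within 500 bp it was 37.4% and 44.1% for OCT4 in high and medium cells and 51% without OCT4. An overlap of 1 bp gave the same shares as identity. Among members at least as wide as the median, 72.9% had NANOG in medium cells, 45.8%, 51.6% and 44.5% had OCT4 in high, medium and negative cells, and 42.6% had none. Without members in repeated sequence, 26.7% had OCT4 in medium and 23.3% in negative cells, and 69.4% had none. This last setting was added after the data had been seen.

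For motifs, members minus other NANOG regions was, for the NANOG core, -2.35 points with 50 bp either side and -4.85 points in regions with OCT4, both with intervals that include 0. For Oct-Sox, members minus other NANOG regions gave -2.84 points (-4.07 to -0.405) with 50 bp either side, and for Sox -4.84 points without OCT4, both past 0 unlike the value reported. Within the members, OCT4-bound minus OCT4-free gave 2.89 and 4.3 points for the octamer with 50 and 250 bp either side, and for Oct-Sox 2.54 points with 50 bp either side and 2.75 points with 1 mismatch fewer, all with intervals that include 0. The sign changes, for members minus other NANOG regions, were at Sox (0.288 points with OCT4), ESRRB (0.981 without OCT4, 0.0129 for members in the high list against regions lost, 0.0563 without the chromosome 8 stretch, 0.464 without repeated sequence), CTCF (0.254 with 1 mismatch fewer) and REST (0.0195 with 50 bp either side, 0.205 without OCT4). Within the members the sign changed at ESRRB, to 1.06 points with 1 mismatch fewer. The promoter difference was 2.97 points at 5 kb, 0.261 points with OCT4 and 2.35 points for members in the high list against regions lost, with intervals that include 0. GC content of members was 45.2% in windows of 1 kb. The repeated sequence share stayed higher in members under every alternative tried, from 4.36 to 31.2 points. The cause of these changes was not tested. Exact motifs could not be made stricter and have no such alternative.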

Other observations

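Among chromosomes, chromosome 8 held 24 members and chromosome 1 held 23, and chromosome Y held none of the members and 1 other NANOG region. Chromosome 14 held 19 members, 6.64% of all, and 4.04% of the other NANOG regions, and chromosome 16 held 4 members, 1.4%, against 3.49%.

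Members also occurred as close pairs within a gene or near one. In an intron of Adamts2, a procollagen peptidase gene, 2 members of 40 bp lay at chr11:50592452-50592491 and chr11:50592512-50592551, both with a median of 2 copies and both without OCT4. Near 2610034B18Rik, members of 80 and 60 bp lay at chr7:87099932-87100011 and chr7:87100032-87100091, the first bound by NANOG in negative cells only and the second in medium and negative cells. In an intron of Xkr4, members at chr1:3333732-3333871 and chr1:3334312-3334451 belonged to different shared-sequence sets, of 4 and of 7 members. These pairs were chosen after their values were seen.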
